A study of Mus musculus with 15 samples.

Results

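The comparison of ATF4 overexpression with the GFP control in mouse cardiomyocytes rests on 10 of the 15 RNA-seq libraries of the series, 5 from ATF4 hearts and 5 from GFP hearts, chosen by their sample labels. Mice of the Rosa-Cas9GFP strain were injected 1 day after birth with an adeno-associated virus (AAV), a viral vehicle for genes. It carried GFP alone (AAV-GFP) or ATF4 joined to GFP by a 2A peptide (AAV-ATF4-2A-GFP). At 4 weeks of age cardiomyocytes were freed by Langendorff perfusion, in which digestive enzymes are pumped through the coronary vessels, and purified by fluorescence-activated sorting. The control animals thus shared the Rosa allele, the virus, the GFP cargo, the age and the sort, and the promoter of the vector is not given in the sources used here. Counts are per gene, so that vector ATF4 and the animal's own Atf4 were not separated. Of 23337 genes in the table, 11814 had enough counts to be tested. The other 5 libraries received DDIT3 in place of ATF4 and entered the fit to share its estimate of the spread.

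ATF4 is a bZIP transcription factor whose protein is made when translation initiation is throttled by phosphorylation of eIF2, the core of the integrated stress response. It binds, usually with a C/EBP partner, to composite elements that join a C/EBP site and an ATF site, and it is known for switching on amino acid uptake, amino acid synthesis and the charging of tRNAs. In the heart, mitochondrial faults are a known trigger of this program, and cardiomyocytes depend on mitochondrial oxidation of fatty acids for the work of contraction.

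Total counts ran from 6217744 to 7514376 in the ATF4 libraries and from 6680988 to 7963333 in the GFP libraries. The first principal component (54.4% of the variance) parted ATF4 from all other libraries. On the second (11.4%), ATF4 replicate 2 stood apart from the other ATF4 libraries, at 40.6. DDIT3 replicate 2 also stood high there, at 35.2, and GFP replicate 2 less so, at 7.82. Replicates 4 and 5 were negative there in every group. ATF4 replicate 2 was female by its transcripts, as were GFP replicates 4 and 5, and the label of GFP replicate 5 names another version of the SMART-Seq chemistry than the rest. Markers of other cell types were measured beside the results. Of 16 endothelial markers 14 rose and 0 fell in ATF4, with a summed level of 1720 to 2484 CPM against 760 to 1485 CPM in GFP, none at 0. Vwf and Kdr did not pass the test (log2 fold change -0.19 ± 0.28 and 0.58 ± 0.23). Of 11 pericyte and smooth muscle markers 5 rose (2 or 3 when any of 5 single libraries was left out), at summed levels of 773 to 1474 CPM in ATF4 and 914 to 1399 CPM in GFP. Among 12 fibroblast markers 1 rose and 1 fell (476 to 1053 against 425 to 916 CPM), and of 7 leukocyte markers none passed edgeR's test (13.3 to 32.7 against 21.7 to 30.7 CPM). The defining leukocyte genes Ptprc, Adgre1, Cd3e and Cd79a were not among the tested genes. Of 13 leukocyte markers listed, 12 were found in the counts under the symbols searched. Markers of ventricular cardiomyocytes summed to 106400 to 118000 CPM in ATF4 and 128600 to 171200 CPM in GFP, and 8 of 12 fell. In bulk RNA, fewer cells of a type and less RNA per cell cannot be told apart, and the part of these markers in the results that follow was not tested.

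**Figure D1:**
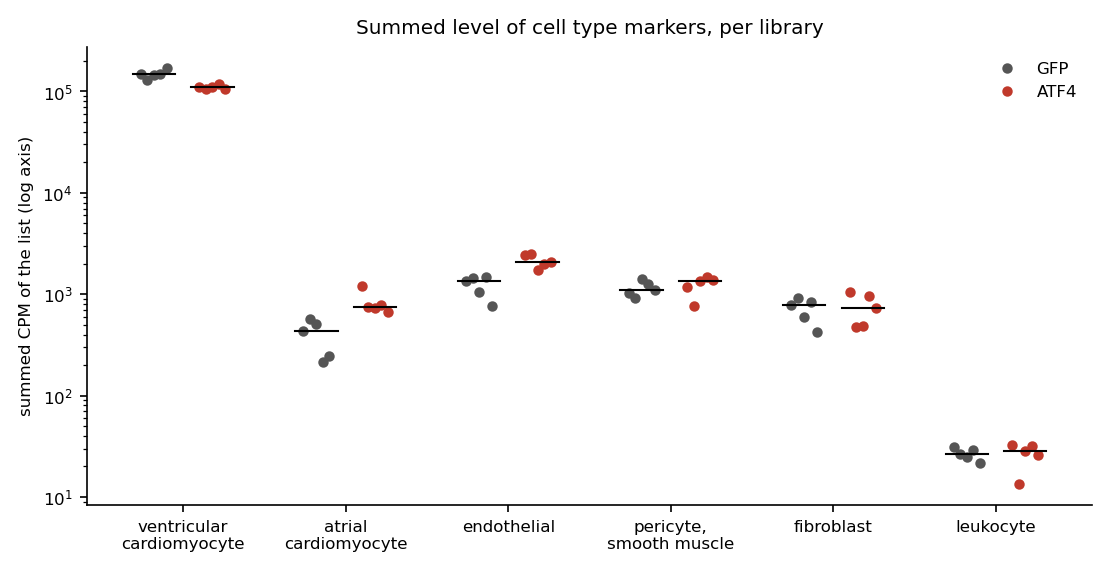
Summed level of each marker list (CPM, log axis) in every ATF4 and GFP library, one point per library. Endothelial markers lay at 1720 to 2484 CPM in ATF4 and at 760 to 1485 CPM in GFP, without overlap, while the fibroblast and leukocyte ranges overlapped.

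The targeted gene checked the labels. Atf4 (chr15:80255184-80257545, GRCm38.p6) read 398, 538, 351, 360 and 352 CPM (counts scaled to library size with TMM factors, the unit of every level given here) in ATF4 replicates 1 to 5. In GFP replicates 1 to 5 it read 82.1, 79.5, 51.3, 73.5 and 69.4 CPM. Every ATF4 library exceeded every GFP library, ATF4 replicate 2 being the highest, and the log2 fold change was 2.49 ± 0.21 (SE, edgeR quasi-likelihood adjusted p = 4.1e-08).

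The response was wide and lopsided. Of the 11814 genes 3801 passed edgeR's test at an adjusted p of 0.05 (32.2%), of which 1953 rose (16.5% of genes tested) and 1848 fell (15.6%). The rises were the larger ones: 713 genes rose at least 2-fold and 336 fell at least 2-fold, 275 rose and 30 fell at least 4-fold, and 109 rose and 0 fell at least 16-fold. The median called rise was 0.81 and the median called fall -0.61 on the log2 scale. All 5 ATF4 libraries lay above all 5 GFP libraries in 1378 genes (11.7%) and below them in 1156 genes (9.79%). Scaling by library totals alone, without TMM factors, called 3010 genes higher and 1161 lower, so that the share of rises among calls went from 51.4% to 72.2%. That scaling moved the median log2 fold change of all genes from 0.02 to 0.17, and small falls are to be read against it.

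By level in GFP, calls of rises were most frequent in the lowest quintile and calls of falls in the highest. In the quintile of genes with the lowest GFP level (up to 5.30 CPM), 21.8% rose and 5.54% fell. In the quintile with the highest level (71.1 CPM and more), 10.8% rose and 34.5% fell, and the median log2 fold change over all its genes was -0.20. In between, the share that fell climbed through 9.48%, 11.3% and 17.4%. The standard error was also smaller at high level, with a median of 0.12 in the top quintile and 0.33 in the bottom one, so that smaller changes could be called there. The GFP level that set the quintiles is also the base of the fold change. Genes near 0 in GFP passed the count filter through another group, which favours rises in the lowest quintile in advance. Among the called rises 14 had 0 counts in GFP and 14 had 1 to 3. As a share of all counts, the genes that rose took 16.3 ± 0.82% of an ATF4 library and 7.36 ± 0.26% of a GFP library (mean ± SD, n = 5). Those that fell took 30.9 ± 2.88% and 42.6 ± 1.10%. The 109 genes that rose at least 16-fold went from 0.0190 ± 0.0015% to 1.27 ± 0.07% of the counts. These genes were chosen by this same contrast, so the shares describe the size of the change and are no test of it.

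**Figure D2:**
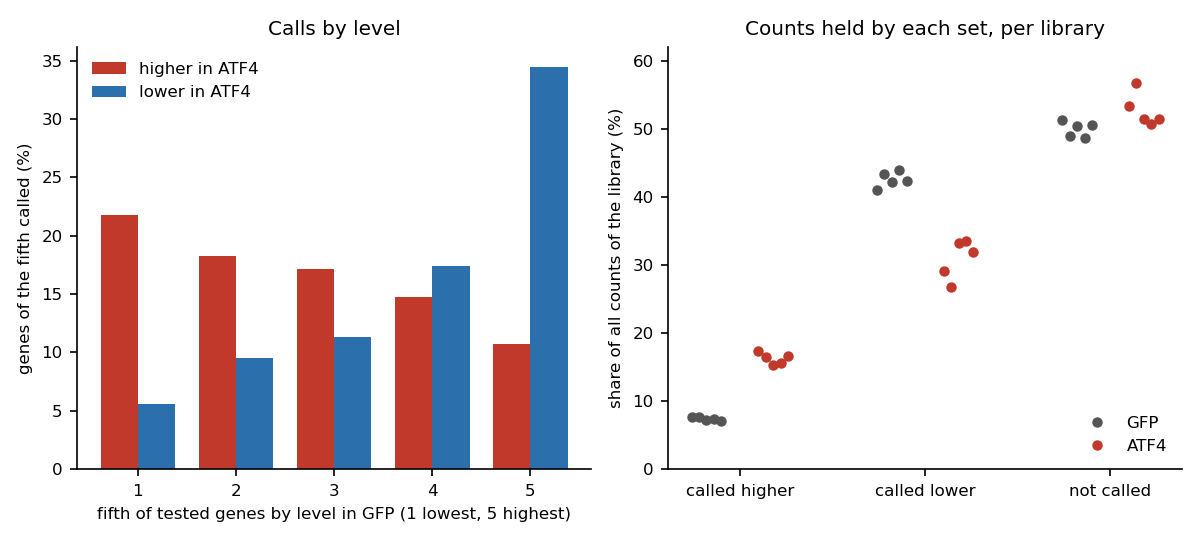
Share of genes that rose or fell (%) in each quintile of the GFP level, and the share of all counts of each library (%) taken by called genes. The share that fell went from 5.54% in the lowest quintile to 34.5% in the highest, and the share that rose from 21.8% to 10.8%.

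**Figure D3:**
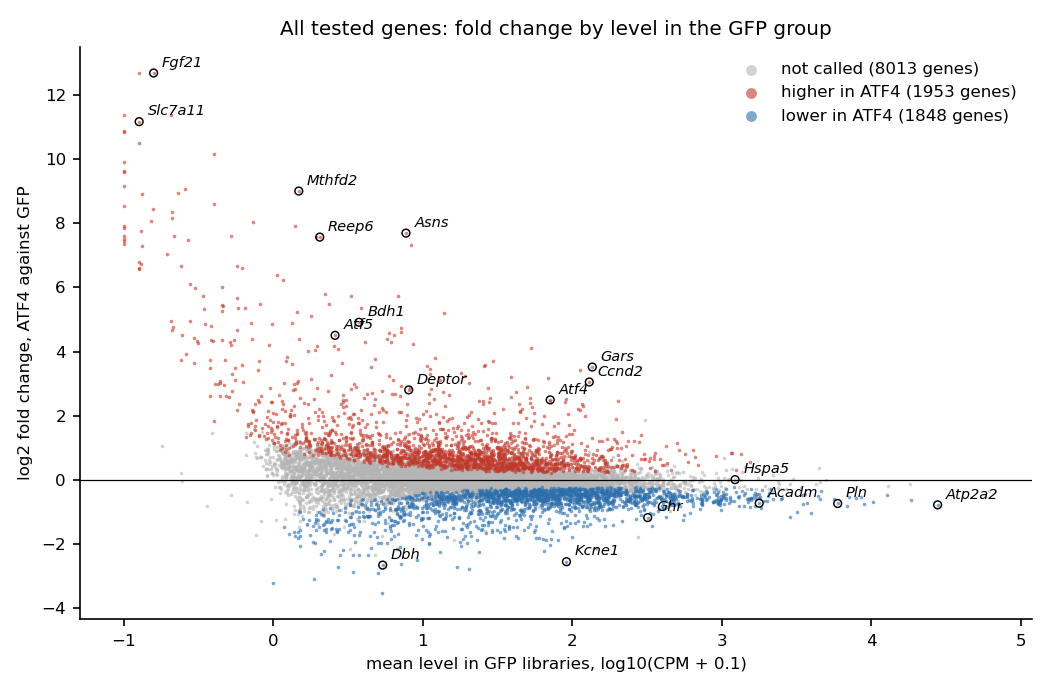
Log2 fold change of ATF4 against GFP (vertical axis) by mean level in CPM (log horizontal axis) for the 11814 genes tested, with genes that rose, genes that fell and genes not called in separate colours. Rises of 16-fold and more, 109 in number, have no counterpart among the falls.

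Gene lists are given by how many of their tested members rose or fell by edgeR. The background for every list is the 16.5% of all tested genes that rose and the 15.6% that fell. Falls were more frequent at high level, with 34.5% in the quintile of the highest GFP level. The lists were not matched for level. For each list with a count of 0 in one direction, DESeq2 and limma-voom also gave 0, and at most 1 member passed an unadjusted p of 0.05 in that direction. In 6 of these lists the 0 became 1 under library totals alone, with the replicate number as a block or with a single library left out. Counts of 1 or 2 moved by up to 2 genes when single libraries were left out. List counts under library totals alone are to be read against that scaling's own calls. Of all 11814 genes it called 3010 higher and 1161 lower.

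Enzymes that make amino acids were among the steepest rises. Of 20 tested members of the amino acid synthesis list 13 rose and 2 fell (65% and 10%, against 16.5% and 15.6% of all genes tested), with a median log2 fold change of 1.69 against 0.02 over all genes. Asns, asparagine synthetase, read 1644, 1327, 1600, 1697 and 1677 CPM in ATF4 and 8.18, 7.30, 8.43, 7.90 and 6.32 CPM in GFP. ATF4 replicate 2 was the lowest of its group although its Atf4 level was the highest, and the groups lay far apart (7.70 ± 0.18, edgeR adjusted p = 6.2e-16). Psat1, the second enzyme of serine synthesis, was likewise lowest in ATF4 replicate 2, at 337, 227, 340, 368 and 346 CPM against 0.632 to 2.35 CPM in GFP. Aldh18a1, which opens proline synthesis, stood at 418 to 553 CPM against 12.4 to 15.2 CPM, and Pycr1, which closes it (named after its values were seen), at 72.6 to 88.5 CPM against 0.536 to 1.23 CPM. Shmt2, mitochondrial serine hydroxymethyltransferase, rose from 68.9 ± 5.26 to 622 ± 53.1 CPM. Of the 2 members that fell, Got2, the mitochondrial aspartate aminotransferase, went from 990 ± 67.7 to 516 ± 74.7 CPM (-0.94 ± 0.10, adjusted p = 1.7e-06), and Oat, ornithine aminotransferase, from 282 ± 20.6 to 214 ± 27.2 CPM (-0.39 ± 0.10). Got1, the cytosolic counterpart of Got2 (named after its values were seen), rose from 1242 ± 61.1 to 1540 ± 144 CPM.

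In the folate cycle, which passes on the carbon that serine gives up, mitochondrial enzymes led the rises. Of 16 members 6 rose and 1 fell (median 0.24). Mthfd2 read 763, 520, 791, 808 and 721 CPM in ATF4 and 0.912 to 1.74 CPM in GFP (9.01 ± 0.26 on the log2 scale). Mthfd1l, the next mitochondrial enzyme, rose by 6.67 ± 0.28 and Aldh1l2, which burns formyl-folate there, by 3.70 ± 0.18. Slc19a1, the folate carrier, rose by 1.38 ± 0.15, and Mthfd2l, the near relative of Mthfd2, fell from 7.15 ± 1.61 to 3.88 ± 0.66 CPM.

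Transporters that bring amino acids into the cell rose with the enzymes. Of 26 transporters 17 rose and 2 fell, with a median of 0.87. Slc7a5, the large neutral amino acid exchanger, read 1548, 1343, 1304, 1075 and 1354 CPM in ATF4 against 11.8, 6.78, 5.97, 6.06 and 10.9 CPM in GFP. Its heavy chain partner Slc3a2 was already present in GFP at 52.7 ± 3.12 CPM and reached 902 ± 39.6 CPM. Slc6a9, a glycine transporter, rose by 8.06 ± 0.29. The cationic transporter Slc7a3 had 1 count in all GFP libraries together and 254 to 327 CPM in ATF4. The members that fell were Slc16a10, which carries aromatic amino acids, by 0.86 on the log2 scale (SE 0.14), and Slc38a4, by 0.40 (SE 0.14), a call lost when any of several single libraries was left out. Slc36a2, a proton-coupled carrier of glycine and proline, was among the falls with the lowest p: it read 11.1, 19.8, 19.4, 17.2 and 22.7 CPM in ATF4 against 72.4, 54.0, 68.3, 68.7 and 71.0 CPM in GFP.

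The enzymes that charge tRNAs split by compartment. Of 20 cytosolic aminoacyl-tRNA synthetases 16 rose and 0 fell, with a median of 2.12. Sars, for serine, stood at 446 to 495 CPM in ATF4 and 84.8 to 93.3 CPM in GFP. Aars, for alanine (named after its values were seen), rose from 116 ± 11.7 to 597 ± 75.7 CPM, whereas Qars, for glutamine (likewise), read 53.6 to 57.7 CPM and 49.0 to 58.6 CPM, with a log2 difference of -0.01 ± 0.08. Of 17 mitochondrial synthetases 0 rose and 8 fell, with a median of -0.33. Aars2 fell from 67.0 ± 7.04 to 48.5 ± 6.31 CPM, Hars2 from 48.2 ± 3.74 to 36.0 ± 5.62 CPM and Fars2 from 94.9 ± 3.19 to 75.3 ± 10.9 CPM. These falls were small: only 2 of the 8 were called with library totals alone, and 4 or 5 without ATF4 replicates 1 or 2 or GFP replicates 3 or 4.

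Regulators of the stress response itself moved unevenly. Of 23 members 10 rose and 2 fell (median 0.52). Trib3, a pseudokinase that binds ATF4, read 368, 417, 346, 324 and 335 CPM against 0.948 to 2.41 CPM in GFP. Nupr1, a small stress-induced chromatin protein, read 131, 152, 145, 123 and 78.7 CPM against at most 0.652 CPM. Sesn2, which senses leucine, varied little within groups, at 154 to 171 CPM against 7.56 to 9.74 CPM. Other genes that the same pathway is known to induce did not pass the test: Atf3 read 40.4 to 316 CPM in ATF4 and 28.2 to 162 CPM in GFP, and Ppp1r15a, the eIF2 phosphatase subunit, 78.3 to 139 and 36.0 to 98.3 CPM. The highest Atf3 value was again that of ATF4 replicate 2. Ddit3, which encodes CHOP, rose from 15.6 ± 1.28 to 29.5 ± 7.62 CPM (0.91 ± 0.17, edgeR adjusted p = 0.00061). Gadd45b, a growth arrest gene, fell from 11.1 ± 4.68 to 3.42 ± 0.86 CPM with overlapping groups.

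Among 37 bZIP factors, the family that supplies partners for ATF4, 13 rose and 4 fell (2 under library totals alone or without ATF4 replicates 1, 4 or 5 or GFP replicate 1). Atf5, itself a stress-translated factor, read 52.6, 49.8, 72.5, 60.8 and 49.8 CPM against 1.07 to 3.39 CPM (4.50 ± 0.23). Cebpg, a known dimer partner of ATF4, rose from 21.0 ± 3.82 to 90.8 ± 13.8 CPM, and Jdp2, a Jun dimerization protein, from 3.45 ± 0.77 to 25.7 ± 10.7 CPM. Cebpb did not pass the test (0.30 ± 0.28, adjusted p = 0.43). Hlf, a factor with daily rhythm, fell by 1.58 (SE 0.16) on the log2 scale. Outside the bZIP list, Myc, a growth regulator that needs amino acid supply, stood at 22.1 to 54.0 CPM in ATF4 and 1.45 to 6.04 CPM in GFP.

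**Figure D4:**
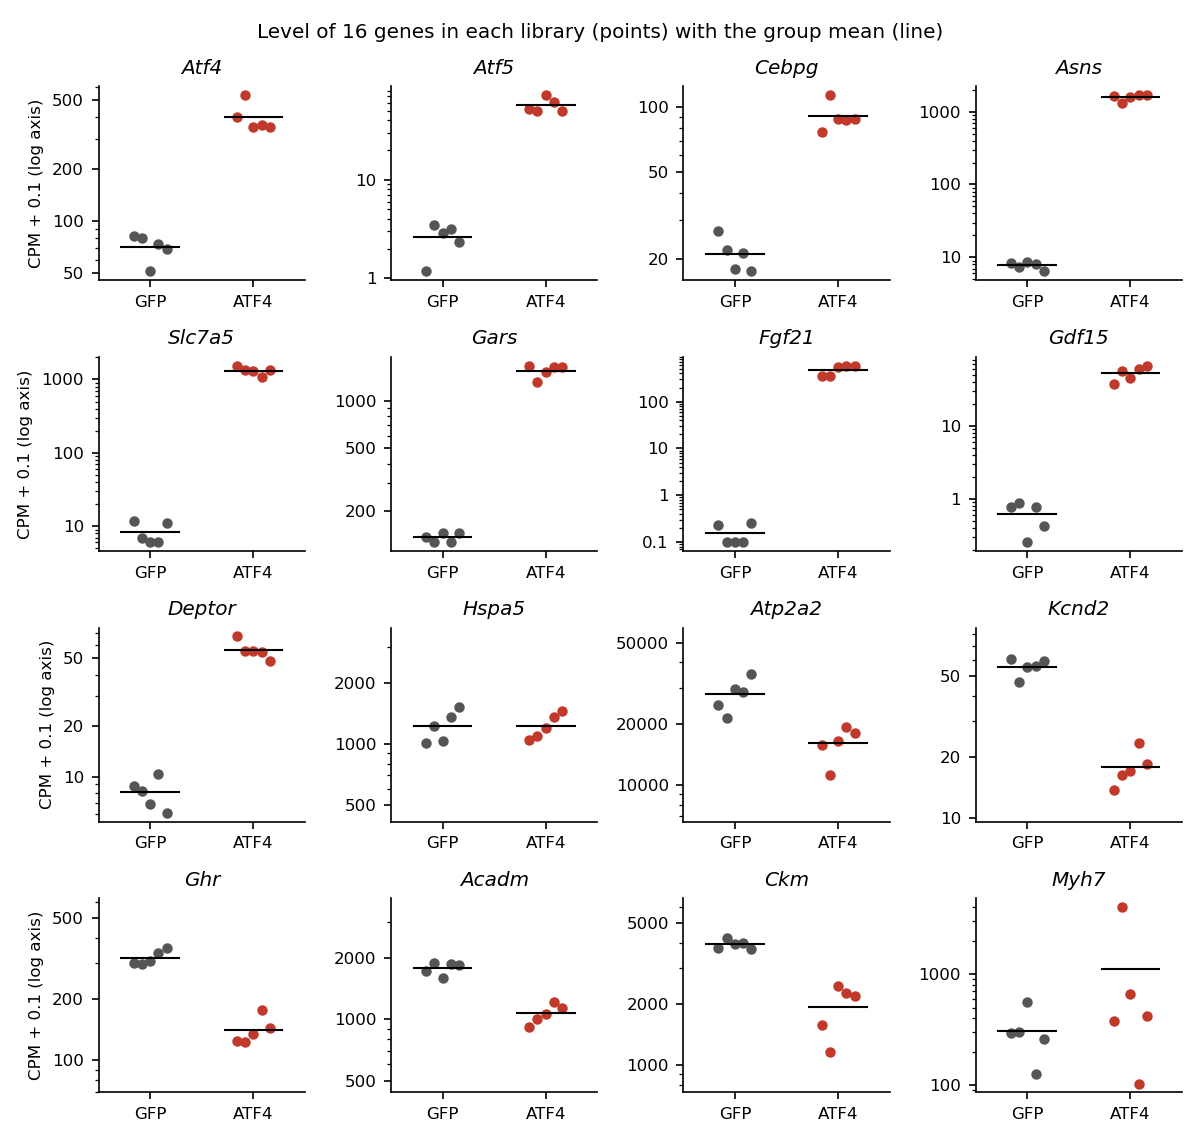
Level (CPM, log axis) of 16 genes in each of the 5 ATF4 and 5 GFP libraries, one point per library. Atf4, Asns and Slc7a5 lay above every GFP library, Kcnd2, Ghr and Acadm below every one, and Hspa5 and Myh7 overlapped.

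The start regions of the steepest risers were read for the composite element. The sequences are RefSeq promoters of GRCm38.p6, from 250 bases before to 50 bases after each annotated start, and 89 of the 109 genes that rose at least 16-fold matched one (81.7%). The motif TGATGNAA was searched on both strands. TGATGCAA, 1 of the forms it covers, was also counted alone, and TGACGTCA, the cyclic AMP element, was searched for contrast. Of these 89 genes, 20 held TGATGNAA (22.5%, exact binomial 95% interval 14.3 to 32.6%), 12 held TGATGCAA (13.5%) and 0 held TGACGTCA. Over all 32851 promoters of the table the shares were 3.97%, 0.895% and 1.79%, and over its 27025 genes, counted like the 89 with any promoter of a gene, 4.51%, 1.03% and 2.03%. Among the 1482 matched genes of the 1848 that fell the shares were 3.04%, 0.742% and 2.83%. A match describes letters in this window and is not shown to be a binding site.

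The following stretches come from 7 genes with such a match and carry some of the steepest rises. Each is written on the gene's strand from 5′ to 3′, with the match in capitals. Chac1 degrades glutathione, Fgf21 is a hormone, Slc7a11 imports cystine and holds 2 matches in opposite orientations, and Pck2 is mitochondrial phosphoenolpyruvate carboxykinase. Asns carries TGATGAAA.
Chac1, chr2:119351009-119351096, plus strand: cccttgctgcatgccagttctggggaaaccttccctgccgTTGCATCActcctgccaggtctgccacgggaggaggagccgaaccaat
Fgf21, chr7:45615582-45615669, minus strand: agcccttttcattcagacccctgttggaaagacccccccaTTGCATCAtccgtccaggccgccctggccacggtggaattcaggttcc
Slc7a11, chr3:50443614-50443719, minus strand: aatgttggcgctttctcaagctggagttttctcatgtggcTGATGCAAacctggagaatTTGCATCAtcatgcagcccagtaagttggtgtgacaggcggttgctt
Asns, chr6:7693210-7693272, minus strand: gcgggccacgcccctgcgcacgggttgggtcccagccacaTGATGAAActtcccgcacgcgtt
Nupr1, chr7:126625533-126625620, minus strand: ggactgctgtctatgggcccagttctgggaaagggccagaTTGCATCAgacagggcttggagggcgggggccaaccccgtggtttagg
Pycr1, chr11:120643804-120643891, minus strand: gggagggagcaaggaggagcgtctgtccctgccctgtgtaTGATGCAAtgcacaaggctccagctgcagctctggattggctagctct
Pck2, chr14:55540123-55540210, plus strand: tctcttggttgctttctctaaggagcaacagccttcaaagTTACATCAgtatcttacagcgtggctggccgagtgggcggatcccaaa

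Of the 109 steepest risers 34 stood in a gene list, 21 of them in the lists of amino acid supply and stress regulators, and 75 in none. The lists name 1467 genes, tested or not, beside 11814 genes tested, and were chosen with earlier results of these data known. The choice of the 109 by their fold makes these counts a description, and 51 of the 109 had at most 10 counts over the 5 GFP libraries. Reep6, an ER-shaping protein, had one of the lowest p of the comparison: it read 422, 376, 396, 302 and 369 CPM in ATF4 against 1.56 to 2.45 CPM in GFP. Pck2, named after its values were seen, stood at 336 to 399 CPM against 4.61 to 9.93 CPM. Phf10, a subunit of a chromatin remodelling complex, rose from 25.6 ± 2.95 to 297 ± 14.3 CPM.

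Secreted factors rose and fell in one list. Of 50 tested hormones and growth factors 16 rose and 11 fell (32% and 22%, median 0.42). Fgf21 read 352, 360, 540, 590 and 585 CPM in ATF4 and had 2 counts in all GFP libraries, a ratio of 8659 (95% counting interval 2397 to 71505). Gdf15, a stress cytokine, read 37.5, 56.3, 45.1, 59.8 and 66.5 CPM against 0.153 to 0.782 CPM. Adm2, a vasodilator peptide, had no count in GFP. With 3 counts in the whole GFP group taken as the floor, it was at least 380-fold higher. Stc2, stanniocalcin, rose from 7.65 ± 1.16 to 24.5 ± 2.10 CPM. Among the members that fell, Angpt1, a ligand of the endothelial receptor Tie2, went from 60.3 ± 9.82 to 17.2 ± 5.32 CPM, and Vegfb, a growth factor of the VEGF family, from 299.8 ± 26.1 to 159 ± 26.2 CPM. Endothelial markers rose in the same libraries, as given above, and their part in these values was not tested. The growth hormone receptor Ghr read 124, 123, 134, 177 and 144 CPM in ATF4 against 301, 299, 308, 336 and 355 CPM in GFP, with no overlap (-1.19 ± 0.11, edgeR adjusted p = 1.9e-07).

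Genes of the endoplasmic reticulum (ER) rose in part. Of 31 chaperones and factors of ER-associated degradation 12 rose and 0 fell, with a median of 0.29. Ero1l, which drives disulfide formation, read 216, 167, 173, 197 and 228 CPM against 21.1 to 35.1 CPM. Herpud1, a degradation factor, rose from 217 ± 27.1 to 606 ± 24.6 CPM and the co-chaperone Dnajb9 from 40.5 ± 3.83 to 103 ± 8.64 CPM. The abundant chaperone Hspa5 did not pass the test, at 1049 to 1453 CPM in ATF4 and 1014 to 1523 CPM in GFP. Of 52 genes of translocation and ER to Golgi transport only 8 rose (15.4%, near the background of 16.5%) and 2 fell. Mcfd2, a cargo receptor subunit, led them at 184 ± 20.9 against 74.0 ± 12.1 CPM. Of 24 genes of the BCL2 family and the death receptors 6 rose and 0 fell, among them the killers Hrk (4.83 to 13.5 CPM against 0.132 to 0.474 CPM) and Bbc3 and the protector Bcl2 (18.6 ± 2.77 against 5.30 ± 1.37 CPM).

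Redox genes and the machinery of translation and growth also moved. Of 43 members of the glutathione and NRF2 list 22 rose and 7 fell (51.2% and 16.3%, the falls near the background of 15.6%). Srxn1, sulfiredoxin, read 119 to 180 CPM against 22.3 to 40.5 CPM, and Hmox1, heme oxygenase, 31.1 to 49.1 CPM against 1.26 to 3.49 CPM, while the transferases Mgst3 and Gstt1 fell (-0.76 ± 0.11 and -1.37 ± 0.21). Of 44 translation initiation factors 15 rose and 2 fell. Eif3c rose from 122 ± 13.4 to 489 ± 36.4 CPM, Eif2s2, a subunit of eIF2, from 27.2 ± 5.29 to 97.5 ± 14.2 CPM, and the cap-binding inhibitor Eif4ebp1 from 100.1 ± 28.9 to 267 ± 32.4 CPM. Under library totals alone 23 initiation factors were called higher. In the list of mTORC1 and nutrient sensing 5 of 34 rose and 4 fell (0 under library totals alone, 2 without ATF4 replicate 3), near the background. Deptor, an inhibitor of mTOR, read 67.2, 54.8, 55.3, 54.1 and 47.9 CPM against 8.72, 8.08, 6.74, 10.3 and 6.01 CPM (2.80 ± 0.18). Its activator Rheb also rose (0.64 ± 0.12). Among 29 genes of MYC, cyclins and the cell cycle 7 rose and 2 fell, with Ccnd2, cyclin D2, at 965 to 1152 CPM against 107 to 164 CPM and the cyclin kinase inhibitor Cdkn1a at 146 to 288 CPM against 21.3 to 83.3 CPM.

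In the list of autophagy and lysosome genes rises outnumbered falls. Of 56 autophagy and lysosome genes 18 rose and 7 fell (3 under library totals alone, 4 without ATF4 replicate 1), although the list's median was only 0.04. Ctsk, cathepsin K, read 82.7, 85.9, 72.8, 81.5 and 74.7 CPM against 2.01 to 5.27 CPM. Atp6v1h, a subunit of the proton pump of lysosomes, rose from 43.7 ± 2.79 to 227 ± 22.8 CPM and Becn1, an autophagy initiator, from a range of 62.7 to 70.2 CPM to one of 96.0 to 114 CPM, while cathepsin H (Ctsh) fell by 0.92 on the log2 scale (SE 0.14). Of 47 proteasome genes 8 rose and 2 fell (17.0% and 4.26%, against 16.5% and 15.6% of all genes). The rises are thus near the background. Under library totals alone 21 were called higher, as were 3010 of all 11814 genes. Psme1, an activator subunit, fell from 143 ± 12.5 to 74.3 ± 8.78 CPM. The difference between the lysosomal and proteasomal lists was not tested.

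Lipid genes rose and fell. Of 28 sterol genes 7 rose and 1 fell (median 0.27). Soat2, which esterifies cholesterol, had no count in GFP and 41.8 to 49.7 CPM in ATF4, by the same floor at least 535-fold higher. Sqle and Cyp51, enzymes of sterol synthesis, rose by 1.82 ± 0.28 and 0.86 ± 0.12, and Scap, which escorts the SREBP factors of sterol synthesis, by 0.98 ± 0.10. Of 28 genes of fatty acid synthesis and elongation 5 rose (11 under library totals alone) and 4 fell, 17.9% and 14.3%, near the background of 16.5% and 15.6%. The desaturase Fads1 went from 14.8 ± 3.83 to 92.7 ± 17.4 CPM, and Acsl1, which activates long-chain fatty acids, and Lpin1, a phosphatidate phosphatase, fell by 0.57 (SE 0.12) and 1.06 (SE 0.20) on the log2 scale. Of 22 lipid droplet genes 7 rose and 3 fell (5 without ATF4 replicate 2, ATF4 replicate 5 or GFP replicate 2). Those are 31.8% and 13.6%, the falls near the background of 15.6%. The droplet coat protein Plin2 stood at 105 to 127 CPM against 61.8 to 79.7 CPM and G0s2, an inhibitor of lipolysis, at 175 to 347 CPM against 51.8 to 127 CPM, whereas Fitm1, which helps droplets to form, read 43.5 to 87.6 CPM against 123 to 205 CPM.

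Genes of fuel oxidation fell, each by a modest amount. Of 26 genes of fatty acid oxidation 0 rose and 19 fell, with a median of -0.47. The falls are 73.1%, against 15.6% of all genes and 34.5% of the highest GFP quintile. Acadm, medium-chain acyl-CoA dehydrogenase, read 911, 1006, 1067, 1215 and 1138 CPM in ATF4 against 1719, 1886, 1598, 1861 and 1845 CPM in GFP, so that the highest ATF4 library stayed below the lowest GFP library. Acaa2, the last step of the spiral, fell from 1838 ± 175 to 995 ± 166 CPM and Etfdh, which hands its electrons on, from 1138 ± 69.6 to 750 ± 111 CPM. Cpt1b, the gate for fatty acids into mitochondria, read far lower than these genes, at 12.9 ± 2.25 CPM in ATF4 and 15.7 ± 0.26 CPM in GFP. It was not called (-0.29 ± 0.13, edgeR adjusted p = 0.11, 0.0467 without ATF4 replicate 3). Over the 24 alternatives, each with its own test, its adjusted p reached 0.437. Of 26 genes that break down branched-chain amino acids and ketones 18 fell and 2 rose (11 fell under library totals alone). Hibadh, in valine breakdown, fell from 481 ± 38.8 to 277 ± 39.2 CPM. Of the risers, Bcat2, the first transaminase of that path, gained 0.35 ± 0.09, and Bdh1, which interconverts ketone bodies, read 41.8 to 144 CPM in ATF4 against 1.69 to 7.20 CPM in GFP (4.91 ± 0.44).

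Complex I subunits fell, as did many assembly and coenzyme Q factors. No list covered the subunits of the other respiratory complexes. Of 36 complex I subunits 30 fell and 0 rose, with a median of -0.59. The falls are 83.3%, against 15.6% of all genes and 34.5% of the highest GFP quintile. Ndufa10 read 541, 489, 649, 685 and 655 CPM in ATF4 against 1014, 1039, 992, 1080 and 1029 CPM in GFP. ATF4 replicate 2 was the lowest here too, and the groups did not overlap. Of 60 assembly and coenzyme Q factors listed, 41 were found in the counts under the symbols searched and 40 were tested. Of these 40, 22 fell and 2 rose (14 fell under library totals alone). Coq9 fell from 742 ± 55.5 to 433 ± 74.6 CPM and Foxred1, an assembly factor of complex I, from 189 ± 11.9 to 114 ± 9.66 CPM, while Adck4, a kinase-like coenzyme Q protein, rose from 8.23 ± 0.93 to 15.6 ± 1.66 CPM. Of 75 mitochondrial ribosomal proteins 33 fell (44%) and 0 rose (median -0.34), but 14 fell under library totals alone and 20 without ATF4 replicate 1. Mrps35 went from 135 ± 10.8 to 79.0 ± 12.2 CPM. Of 35 import genes 9 fell (4 under library totals alone, 5 when ATF4 replicate 1 or either of GFP replicates 2 and 4 was left out) and 1 rose. These falls are 25.7% of the list, against 15.6% of all genes and 34.5% of the highest GFP quintile.

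A few genes of mitochondrial quality control rose, though more of that list fell. The list of mitochondrial chaperones and proteases has 17 members, of which 3 rose (17.65%, near the background of 16.5%). In the same list 8 fell, with a median of -0.28. That is 47.06%, against 15.6% of all genes and 34.5% of the highest GFP quintile. The falls numbered 3 under library totals alone, and 4 or 5 without ATF4 replicates 1 or 2 or GFP replicate 4. The risers were the protease Lonp1 (504, 456, 416, 452 and 488 CPM against 186, 173, 190, 196 and 215 CPM), the chaperone Hspa9 (2042 ± 214 against 1152 ± 117 CPM) and the inner membrane protease Yme1l1 (138 ± 23.0 against 69.8 ± 10.9 CPM). Clpp, the matrix protease partner, fell by 0.56 on the log2 scale (SE 0.10). Ghitm, an inner membrane protein outside these lists, stood at 1629 to 2510 CPM against 1022 to 1344 CPM. Of 39 mitochondrial solute carriers 7 rose (17.9%, near the background of 16.5%) and 10 fell (25.6%). Slc25a33, a pyrimidine nucleotide carrier, and Slc25a39, a glutathione carrier, rose from 32.5 to 55.8 CPM in GFP up to 75.5 to 110 CPM in ATF4 and from 199 ± 10.3 to 396 ± 57.8 CPM. Slc25a4, the heart's main ADP/ATP carrier, fell from 8914 ± 1151 to 5197 ± 957 CPM. The coactivator Ppargc1a, which drives mitochondrial gene expression, was not called: it read 489 CPM in ATF4 replicate 2, 152 to 220 CPM in the other ATF4 libraries and 174 to 274 CPM in GFP.

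**Figure D5:**
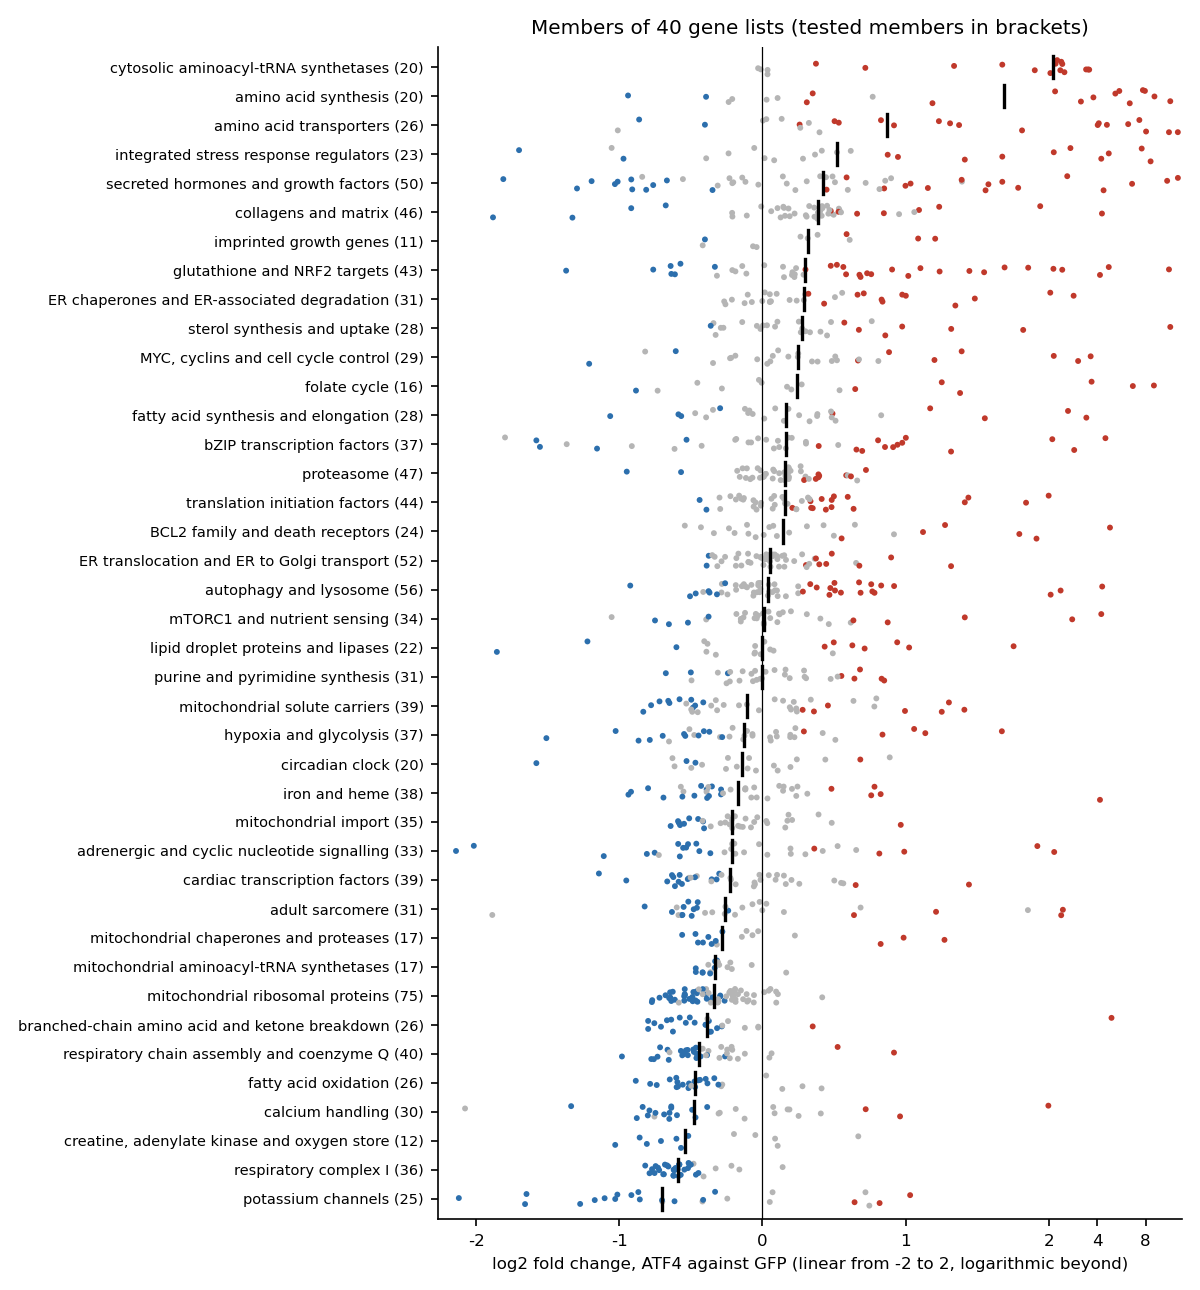
Log2 fold change of ATF4 against GFP for every tested member of 40 gene lists, one point per gene, red where it rose, blue where it fell and grey where it was not called, with a black bar at the list's median. Medians ran from 2.12 in cytosolic tRNA synthetases to -0.70 in potassium channels, and complex I lay at -0.59 with no red point.

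Energy buffers and oxygen stores of muscle fell too. Of 12 genes of creatine, adenylate kinase and oxygen storage 7 fell and 0 rose (median -0.54). Ckm, muscle creatine kinase, read 1579, 1155, 2446, 2269 and 2174 CPM in ATF4 and 3768, 4194, 3952, 3999 and 3721 CPM in GFP. ATF4 varied far more than GFP in this gene, with replicates 1 and 2 lowest. Mb, myoglobin, fell from 10260 ± 1101 to 6276 ± 1396 CPM. In iron and heme genes 13 of 38 fell (34.2%), 6 under library totals alone and 8 without ATF4 replicate 1. Another 5 rose (13.2%, against 16.5% of all genes), 3 when any of several single libraries was left out. Fech, which completes heme, stood at -0.69 ± 0.11. In hypoxia and glycolysis genes 11 of 37 fell (29.7%), 7 under library totals alone or without ATF4 replicate 1 or GFP replicate 5. Rises numbered 5 (13.5%, against 16.5% of all genes), 3 without ATF4 replicate 5 or GFP replicates 1 or 2. The ubiquitous glucose transporter Slc2a1 rose by 1.67 ± 0.18, the insulin-regulated Slc2a4 fell by 0.79 on the log2 scale (SE 0.13), and the muscle enolase Eno3 fell from 3168 ± 172 to 1556 ± 436 CPM.

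Genes of electrical activity gave some of the deepest falls. Of 25 potassium channel genes 15 fell (60%) and 3 rose, with a median of -0.70. Kcnd2, a pore subunit of the transient outward current, read 13.7, 16.1, 16.9, 23.3 and 18.4 CPM against 60.4, 46.5, 55.3, 55.8 and 59.4 CPM. Its accessory subunit Kcnip2 fell from a range of 96.2 to 142 CPM to one of 43.8 to 71.0 CPM, and Kcne1, the partner of the slow delayed rectifier, from 91.4 ± 20.7 to 15.5 ± 5.89 CPM. Against these, the leak channel Kcnk3 rose from 355 ± 35.8 to 555 ± 87.5 CPM.

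In calcium handling 15 of 30 genes fell (50%, against 15.6% of all genes) and 3 rose (10% against 16.5%, 6 under library totals alone). Atp2a2, the pump that refills the calcium store, read 15740, 11170, 16330, 19180 and 18030 CPM in ATF4 against 24590, 21370, 29490, 28620 and 35010 CPM in GFP, with no overlap. Its inhibitor Pln fell from 5971 ± 430 to 3556 ± 157 CPM, and Trdn, which anchors the release channel complex, from 476 ± 64.9 to 306 ± 40.5 CPM. The release channel Ryr2 overlapped between groups and was called (-0.47 ± 0.14, edgeR adjusted p = 0.013), but not under library totals alone (adjusted p = 0.0651). Bin1, which shapes the T-tubule membrane, rose from 2.60 ± 1.26 to 10.6 ± 4.36 CPM. In adrenergic and cyclic nucleotide signalling 13 of 33 fell (39.4%), 8 under library totals alone or without ATF4 replicate 3. Another 5 rose (15.15%, near the background of 16.5%). The receptor Adra1a fell from 10.1 to 25.6 CPM in GFP down to 2.56 to 7.48 CPM in ATF4. The cyclase Adcy5 fell from 104 ± 13.1 to 48.5 ± 3.12 CPM, while the receptor kinase Grk5 rose from 5.33 ± 1.26 to 23.9 ± 3.87 CPM. The receptor Adrb1, named after its values were seen, read 30.9 to 51.0 CPM in ATF4 and 33.2 to 61.7 CPM in GFP.

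The contractile apparatus changed in part. Of 31 adult sarcomere genes 11 fell (6 without ATF4 replicate 1 or under library totals alone, 7 without ATF4 replicate 5) and 4 rose. Those are 35.5% and 12.9%, against 15.6% and 16.5% of all genes. In the highest GFP quintile 34.5% fell. Myl3, an essential myosin light chain, fell from 6904 ± 847 to 3902 ± 877 CPM, and Mybpc3, myosin-binding protein C, read 6087, 4609, 5934, 6362 and 6262 CPM against 7378 to 9890 CPM. Acta1, skeletal actin, read 1106, 416, 1167, 1617 and 1231 CPM against 113 to 264 CPM, and Xirp2, an intercalated disc protein, 260 to 401 CPM against 122 to 197 CPM. The main adult myosin Myh6 was not called (-0.35 ± 0.14, edgeR adjusted p = 0.055, and 0.0152 without GFP replicate 2 or 0.0204 without ATF4 replicate 2). Over the 24 alternatives, each with its own test, the adjusted p of Myh6 reached 0.255. The fetal counterpart of Myh6, Myh7, read 376, 4006, 666, 104 and 424 CPM in ATF4 and 294, 300, 557, 127 and 263 CPM in GFP. Thus 1 library set its mean, and it was not called (1.85 ± 0.80, edgeR adjusted p = 0.093, and 0.0392 without ATF4 replicate 4). Over the same alternatives its log2 fold change ran from 0.35 to 2.18, and its adjusted p reached 0.652. Nppa, the atrial natriuretic peptide, lay above GFP in every ATF4 library, at 586 to 1147 CPM against 110 to 470 CPM. In cardiac transcription factors 14 of 39 fell (35.9%, 7 genes under library totals alone) and 2 rose (5.13%). Rxrg, a retinoid receptor, fell from 140 ± 10.3 to 63.3 ± 20.2 CPM, and Esrrg rose from 76.8 ± 11.7 to 121 ± 18.6 CPM.

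Matrix genes and imprinted growth genes were called in part. Of 46 matrix genes 8 rose and 4 fell (17.4% and 8.70%, the rises near background). Fbln5, fibulin 5 of elastic fibres, read 138, 93.4, 110, 100 and 158 CPM against 3.79 to 8.43 CPM, whereas Fbln1 read 21.0, 22.1, 18.4, 24.7 and 21.8 CPM against 66.9, 65.3, 88.1, 104 and 74.6 CPM. Timp2, a protease inhibitor, and Ltbp1, which stores TGF-beta, fell by 1.33 (SE 0.16) and 1.45 (SE 0.12) on the log2 scale. The summed fibroblast markers overlapped between groups (476 to 1053 against 425 to 916 CPM), and their part in the matrix values was not tested. Of 11 imprinted growth genes 3 rose and 1 fell (27.3% and 9.09%, against 16.5% and 15.6% of all genes). Grb10, an inhibitor of insulin signalling, stood at 357 to 540 CPM against 154 to 249 CPM. The member that fell, Slc38a4, lost its call under library totals alone and when any of several single libraries was left out.

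The falls that follow stood outside the lists. They were named for their low p among genes whose groups were required not to overlap. Dhrs7c, a muscle retinol dehydrogenase of the sarcoplasmic reticulum, read 32.3 to 44.5 CPM against 86.9 to 108 CPM. Pla2g5, a secreted phospholipase, read 9.24 to 24.0 CPM against 66.3 to 75.1 CPM, and Aqp4, a water channel, 13.9 to 18.5 CPM against 47.5 to 67.6 CPM. Gja3, a connexin, stood at 9.68 to 16.3 CPM against 30.7 to 34.6 CPM.

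Set beside the DDIT3 libraries, which share the GFP control, the ATF4 libraries differed as follows. Atf4 itself differed from the DDIT3 libraries by 2.59 ± 0.21 on the log2 scale and Ddit3 by -4.84 ± 0.19 (edgeR adjusted p = 6.7e-13 for Ddit3). Asns was 7.20 ± 0.17 and Acadm -0.75 ± 0.09 away from DDIT3, both past the test. Nppa was not parted from DDIT3 (-0.20 ± 0.36, adjusted p = 0.71), which does not show that the 2 groups were alike. Aqp4 fell against GFP in both, with a log2 fold change of -1.82 ± 0.16 in ATF4 and -0.98 in DDIT3 (adjusted p = 0.0034), and was lower in ATF4 than in DDIT3 (-0.84 ± 0.16, edgeR adjusted p = 0.00071).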

How the data were processed

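The authors deposited whole-number read counts per gene for 15 libraries, and these deposited counts gave every result. The submitters' processing notes name mm10 as the build and, among tools, STAR and featureCounts, as well as DESeq2 and DESeq. No versions of these are given in the sources used here. Both tables of the authors' own comparisons were left out of the work reported here. The kit in the labels is not stranded: values of genes with an antisense neighbour, or with a near-identical copy, are uncertain.

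Counts were tested with edgeR 4.0.16 (R 4.3.3; limma 3.58.1 and DESeq2 1.42.0 for alternatives): TMM factors, filterByExpr (11814 genes kept, 11523 removed), and robust glmQLFit on all 15 libraries with no term but the group (12 residual degrees of freedom and a biological coefficient of variation of 19.6%), and Benjamini-Hochberg adjustment over all genes at 0.05. Fold changes are log2 ± SE, CPM use TMM factors, and group errors are SD over 5 libraries. The 95% intervals and the floor (3 counts in a whole group) cover only counting error.

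Sample titles gave the group and replicate number of each library. The labels do not say whether libraries came from separate animals. The sexes read from transcripts show that neither the ATF4 nor the GFP group came from a single animal, but not how many there were. The p-values measure only the spread between libraries, and among libraries of the same sex that spread may be technical. Pairs of libraries of 1 group differed beyond sampling noise (chi-square per degree of freedom 8.60 to 50.4). The 48 gene lists, the members and the naming rule were chosen with earlier results of these data known. The rule named 36 fixed stress and heart genes and the 12 lowest p in each direction. It also named the 10 largest gains and losses in mean CPM. The lowest p, gains and losses were taken only from called genes whose groups did not overlap. For the lowest p, the higher group also had a mean of at least 5 CPM. Of each list the rule named up to 4 called members of lowest p and up to 2 of the less frequent direction, passing over provisional symbols. Gene positions and promoters are from RefSeq (GRCm38.p6). Alternatives were another test, other scaling, other filters, other terms, fewer libraries and each library left out in turn. A few results are not reported here.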

Additional observations from a re-analysis of the deposited data

Results flagged for a closer look

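The search covered the named stress and heart genes, those of lowest p and those of largest gain or loss. In each group of 5 libraries, a library was flagged if its gap to its nearest neighbour was more than 0.71 of the group's range. Of 132 groups tested 13 had such a library. Chance gives about 1 in 20 only for normal values and independent groups, and these groups share their libraries. Of the 13 flags 7 were in ATF4 replicate 2, which also stands apart from the other ATF4 libraries over all genes.

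In ATF4 replicate 2, Atf4 read 537.9 CPM, where the other 4 ATF4 libraries read 351.3 to 398.3, and Atf3 read 315.6 CPM against 40.35 to 102.8. Myh7 stood there at 4006 CPM against 103.6 to 665.9 and Ppargc1a at 489.3 CPM against 151.9 to 220.1. The same library was lowest in Asns, at 1327 CPM against 1600 to 1697, in Psat1, at 227.4 CPM against 337.2 to 368.3, and in Mybpc3, at 4609 CPM against 5934 to 6362. Nppa read 1147 CPM in ATF4 replicate 1 against 585.8 to 725.3 in the other ATF4 libraries.

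Among the GFP libraries, Chac1 read 10.33 CPM in replicate 1 against 5.662 to 6.796 in the others. Slc7a11 and Slc7a3 each stood at 0.1341 CPM in GFP replicate 1, which is 1 count, and at 0 in the others. Slc36a2 read 53.95 CPM in GFP replicate 2 against 68.32 to 72.43, and Ddit3 read 13.43 CPM in GFP replicate 5, the library with the other chemistry label, against 15.77 to 16.63.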

How the results depend on the processing

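Of 24 alternatives, 1 moved the counts of rises or falls by more than 1.5 times: scaling by library totals alone called 3010 genes higher and 1161 lower, in place of 1953 and 1848. The other scalings and tests called 1904 and 1933 (RLE factors), 2068 and 2064 (DESeq2) and 1964 and 1877 (limma-voom). With 1 library left out, the total ran from 3186 (without ATF4 replicate 1) to 3854, rises from 1656 to 1981 and falls from 1530 to 1873. Without ATF4 replicate 2, 3715 genes were called, 3326 of them among the 3801. With the replicate number as a block 2557 rose and 2540 fell, 5097 in all, 3794 of them among the 3801. The labels do not say that equal numbers mark a shared animal or day. Deviations of same-numbered ATF4 and GFP libraries correlated at 0.379, 0.078, 0.259, 0.386 and 0.240 across genes, and 1 of them lay under the 0.1 asked of every pair, so the numbers were not taken to pair the samples. As a hint from the data, 4 of 5 ATF4 libraries correlated best with their own number. Replicates 4 and 5 were also negative on the second principal component in every group. The block moved falls among import genes from 9 to 16, solute carriers from 10 to 16 and lipid droplet genes from 3 to 6, and rises in fatty acid synthesis from 5 to 10. Of the named genes the block gained Nppb (adjusted p = 0.0251) and lost Max (0.0574). Over 235 named genes and 24 alternatives none of 5640 fold changes changed sign with a call, 99 calls were lost and 14 gained, and 211 genes kept their side throughout. Calls of 16 named genes were lost when some single library was left out, among them Iars2, Tmed7, Kdelr1, Insig2, Max and Slc38a4. Depth limits the ratios of genes with 0 to 3 counts in GFP.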
